A study of Mus musculus with 170 samples.

Results

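Single Dgcr8 conditional knockout (cKO) cardiomyocytes (CMs) from the ventricular part of embryonic day 9.5 mouse hearts differed widely in Mir17hg, the primary transcript that carries the miR-17-92 microRNA cluster, and the cells at the top and at the bottom of that range were compared across all other genes. CMs were the cKO cells in which the mean log2(TPM + 1) of 15 sarcomere and CM genes was at least 8.5, where TPM is the length-normalised transcript abundance unit of the deposited values. This rule kept 68 of 69 cKO cells, out of 143 cells with values. Within each of the 2 sequencing batches named in the sample titles, the 34 cKO CMs were ranked by Mir17hg. The 11 highest cells of each batch formed the Mir17hg-high group (22 cells), the 11 lowest formed the Mir17hg-low group (22 cells), and 24 cells lay between them. Mir17hg itself and the 15 CM genes were therefore used to choose the cells and are given only as a description.

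The study profiled single heart cells by Smart-seq2, full-length cDNA amplification of single cells followed by Tn5 tagmentation, to compare hearts with and without the microRNA biogenesis factor Dgcr8. All cKO cells are labelled Mesp1Cre/+; Dgcr8-/- on a C57BL/6 background. In the study's methods these embryos carry a Cre recombinase driven from Mesp1, loxP-flanked Dgcr8 alleles and the Rosa26 mT/mG reporter, which turns from tdTomato to EGFP after Cre has acted. Mesp1 marks early cardiovascular progenitors, so that Cre acts before CMs form and also acts in other Mesp1 descendants. The Mir17hg-high and the Mir17hg-low cells share this genotype, age and tissue, and cells of both groups had been dissociated and picked by mouth pipette. Control cells, labelled wild type, come from Dgcr8 loxP/loxP embryos with the reporter and without Cre, and are used here as background: 30 of 74 control cells passed the same CM rule. The labels do not say which embryo a cell came from, so each genotype counts as 1 sample. Cells are not replicates of a genotype, no test was made between the cell groups, and every SD below is the spread across cells.

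MicroRNAs are cut in the nucleus from primary transcripts by the microprocessor, in which the RNA-binding protein Dgcr8 guides the ribonuclease Drosha to the hairpins, before Dicer makes the mature strand that loads into an Argonaute protein. Mir17hg is known as a growth-linked transcript whose promoter is bound by MYC and E2F factors, and the mature microRNAs made from it are known to act on cell cycle, survival and TGF-beta pathway messages and to be needed for growth of the embryonic heart and lung. Poly(A)-primed RNA-seq reads the primary transcript and not the mature strands, so that a TPM of Mir17hg is a level of host transcript and says nothing of mature microRNA.

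In the annotation used for positions (GENCODE M21, GRCm38, the assembly that mm10 names), Mir17hg lies at chr14:115042879-115046727 on the plus strand. Its exon 1 has 79 bases and its exon 2 has 3457 bases, and all 6 hairpins lie inside exon 2, at chr14:115043671-115044506. The main mature strand of each hairpin is printed below from RefSeq (GRCm38.p6), because these are the products that the primary transcript measured here would yield, and the 2 strands after them belong to the X-linked Mir322 and Mir503, the microRNA genes that differed most between the groups. Each is written 5′ to 3′, and the capitals mark the seed, bases 2 to 8, which pairs with target messages.
mmu-miR-17-5p: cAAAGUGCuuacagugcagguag
mmu-miR-20a-5p: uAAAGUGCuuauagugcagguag
mmu-miR-18a-5p: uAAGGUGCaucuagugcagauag
mmu-miR-19a-3p: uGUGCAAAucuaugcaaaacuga
mmu-miR-19b-3p: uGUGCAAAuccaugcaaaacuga
mmu-miR-92a-3p: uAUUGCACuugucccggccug
mmu-miR-322-5p: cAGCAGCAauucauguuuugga
mmu-miR-503-5p: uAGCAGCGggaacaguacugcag
miR-17-5p and miR-20a-5p share a seed, and so do miR-19a-3p and miR-19b-3p. The seed of miR-18a-5p differs from that of miR-17-5p at 1 of 7 bases, and the seeds of miR-322-5p and miR-503-5p also differ from each other at 1 of 7 bases. The deposited table has a separate entry for each of the 6 hairpins of the cluster, and all 6 were at 0 in all 143 cells, so that the cluster is read here only through its host.

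Mir17hg ranged from 102 to 405 TPM with a median of 166 TPM in the Mir17hg-high cells, and from 0 to 21.8 TPM with a median of 0.69 TPM in the Mir17hg-low cells. The mean log2(TPM + 1) was 7.402 ± 0.61 (SD, n = 22 cells) in the Mir17hg-high group and 1.51 ± 1.66 (SD, n = 22 cells) in the Mir17hg-low group, a difference of 5.90 that the ranking itself set. Of the low cells, 2 in batch 1 and 5 in batch 2 were at 0. Just inside and outside the limits, the highest low cell had 21.8 TPM and the next cell 32.2 TPM in batch 1, and 9.19 and 19.1 TPM in batch 2. At the upper limit, the lowest high cell had 102 TPM and the cell below it 97.4 TPM in batch 1, and 106 and 90.2 TPM in batch 2. The CM score of the kept cell nearest its limit was 8.66, and that of the cell left out was 7.74.

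The 30 control CMs had a median of 0.26 TPM of Mir17hg and a highest value of 50.7 TPM, and 37 of 68 cKO CMs lay above every control CM. Mir17hg reached 1 TPM in 55 of 68 cKO CMs (80.9%, exact 95% Clopper-Pearson interval 69.5 to 89.4%) and in 11 of 30 control CMs (36.7%, 19.9 to 56.1%). These intervals cover counting error over cells only. The Mir17hg-low cKO cells thus covered the range of most control CMs, and the Mir17hg-high cells lay above all of them.

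**Figure D1:**
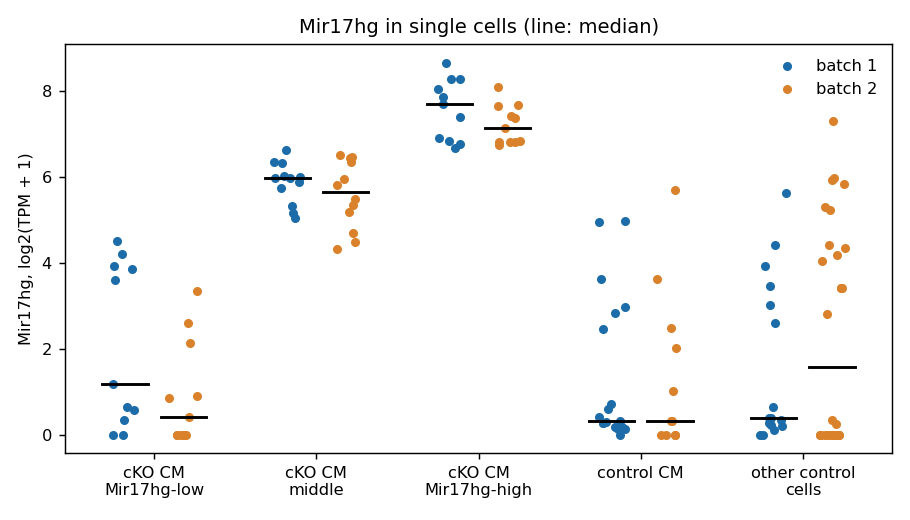
Mir17hg in single cells, as log2(TPM + 1) on the vertical axis, for the 22 Mir17hg-low, 24 middle and 22 Mir17hg-high cKO CMs, the 30 control CMs and the 44 other control cells. Each point is a cell coloured by batch and each line is the median of a batch. The high cells sit between 102 and 405 TPM, above all control CMs, whose highest value is 50.7 TPM.

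The 2 groups had near-equal CM scores, with a median of 10.46 in the Mir17hg-high and 10.48 in the Mir17hg-low cells. The number of genes with a TPM above 0 ranged from 4468 to 11044 (median 8940) in the high cells and from 4244 to 10631 (median 8100) in the low cells. The share of TPM from the mitochondrial genome had a median of 2.15% (0.61 to 14.97%) in the high cells and 3.68% (1.32 to 20.6%) in the low cells. Across the 34 cKO CMs of each batch, which share a batch and the composition of TPM, Spearman's rho of Mir17hg with the number of detected genes was 0.12 in batch 1 and 0.26 in batch 2, and with the mitochondrial share -0.38 and -0.28. Fewer detected genes and a larger mitochondrial share thus went with low Mir17hg, the ranges of the 2 groups overlapped in both measures, and their part in the differences described here was not tested. TPM values keep no read depth, so the depth of each cell is unknown.

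Most genes lay a little higher in the Mir17hg-high cells. Of 13744 genes with a TPM above 0 in more than 10 of 68 cKO CMs, the median difference in mean log2(TPM + 1), high minus low, was 0.21, and it was 0.20 in each batch alone, so that gene lists are read against 0.21 and not against 0. In both batches alike, 856 genes (6.23% of those examined) were higher by at least 1 log2 unit in the high cells, and 89 genes (0.648%) were lower by at least 1. At any size, 40.7% of genes were higher in both batches and 15.2% were lower in both, and the counts of list members are read against these shares. Gene by gene the batches resembled each other weakly: across the 13744 genes, which are not independent, the difference in batch 1 and that in batch 2 had a Pearson correlation of 0.15, and 55.9% of genes had the same sign. No gene other than Mir17hg separated the 22 high from the 22 low cells without overlap. The count of 856 became 386 after the number of detected genes, and 313 after the mitochondrial share, had been regressed out within each batch.

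**Figure D2:**
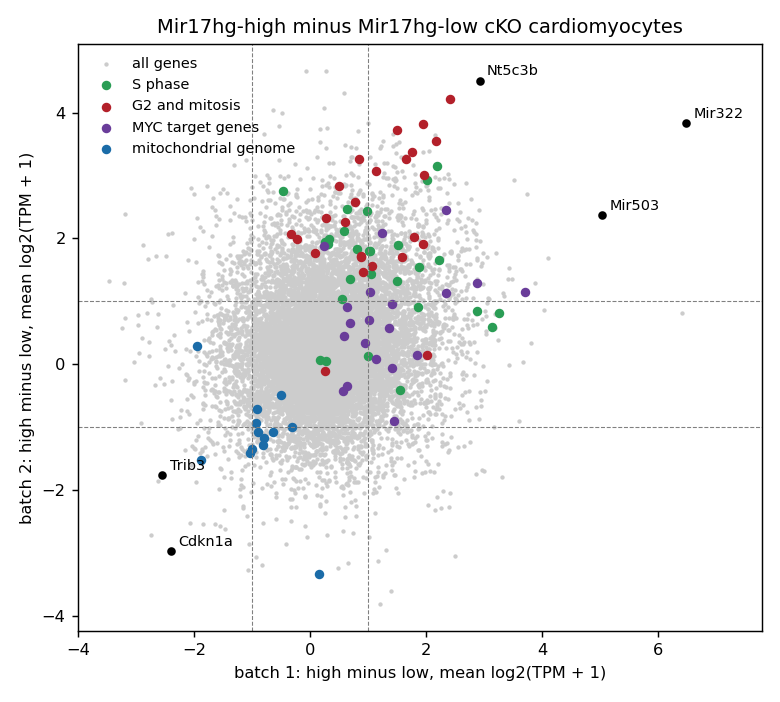
Difference in mean log2(TPM + 1), Mir17hg-high minus Mir17hg-low, in batch 1 (horizontal axis) and batch 2 (vertical axis), 11 against 11 cells in each. Each point is a gene, gene lists are coloured, and dashed lines mark 1 log2 unit. Genes of the S phase and of the G2 and mitosis lists gather at the upper right, mitochondrial genes at the lower left, and Mir322 and Mir503 stand apart at the right.

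The largest difference beside Mir17hg was that of Mir322, the gene of miR-322, on the X chromosome (chrX:53054255-53054349, minus strand). Its level ranged from 0 to 53982 TPM with a median of 821 TPM in the Mir17hg-high cells, and from 0 to 3259 TPM with a median of 0 in the Mir17hg-low cells. It was at 0 in 4 of 22 high and 13 of 22 low cells, so the groups overlapped. The difference in mean log2(TPM + 1) was 5.16 (6.49 in batch 1 and 3.83 in batch 2), with an SD across cells within groups of 4.49. Mir503, from the same cluster, was higher by 3.71 (5.04 and 2.37). Mir351, which lies next to them, was higher by 3.61, with 6.40 in batch 1 and 0.81 in batch 2. Across the 34 cells of a batch, Mir322 and Mir503 had a Spearman's rho of 0.78 in batch 1 and 0.75 in batch 2, as neighbouring genes on one strand that share libraries and many cells at 0. These entries are only 95 and 71 bases long, a few reads therefore give a large TPM, and a read of a longer transcript cannot be told from one of the hairpin. Of the 1009 entries named for microRNA genes, 285 were above 0 in any cell and 16 passed the filter. Among those 16, 8 were higher and 1 was lower in both batches, and Mir322 and Mir503 were the 2 that were higher by at least 1 in both, against 6.23% of all genes.

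Other primary microRNA transcripts did not share one direction with Mir17hg. The 11 noncoding microRNA hosts that passed the filter had a median difference of 0.42 (0.44 in batch 1 and -0.12 in batch 2). Of these, 5 were higher and 3 lower in both batches (45.5% and 27.3%, against 40.7% and 15.2% of all genes). Mir143hg, host of the muscle microRNAs miR-143 and miR-145, was higher by 0.82 (0.60 and 1.04), and Meg3, the imprinted RNA at the start of a large microRNA cluster on chromosome 12, was lower, at -1.62 (-1.86 and -1.38). Dleu2, host of miR-15a and miR-16-1, differed by 2.64 in batch 1 and by -0.12 in batch 2. Of 25 protein-coding hosts, 11 were higher and 6 lower in both batches (median 0.25), close to the 40.7% and 15.2% of all genes. Evl, an actin regulator that hosts miR-342, was higher by 1.62 (1.39 and 1.85), and Ctdsp2, a phosphatase that hosts miR-26a-2, was lower, at -1.65 (-1.21 and -2.10). The paralogous clusters of miR-17-92 lie in Mcm7, a helicase subunit, which was higher by 1.10 (0.25 and 1.95), and at Kis2, which did not pass the filter. Gpc6, a glypican gene downstream of Mir17hg on chromosome 14, was higher by 1.25 (1.05 and 1.45), and Gpc5, its direct neighbour, did not pass the filter.

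Dgcr8, the gene targeted in these embryos, reached 1 TPM in 9 of 22 Mir17hg-high cells (40.9%, 20.7 to 63.6%) and in 1 of 22 Mir17hg-low cells (4.55%, 0.115 to 22.8%). It ranged from 0 to 201 TPM (median 0.11) in the high cells and from 0 to 11.3 TPM (median 0) in the low cells, and 11 high and 16 low cells were at 0. The difference in mean log2(TPM + 1) was 1.94 (2.69 and 1.19), with an SD across cells of 2.05. In control CMs Dgcr8 reached 1 TPM in 17 of 30 cells (56.7%, 37.4 to 74.5%). A TPM summed over a whole gene (chr16:18253948-18289246) also counts transcripts that lack the floxed stretch, so these values do not show whether a cell retained intact Dgcr8.

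The list of 23 microRNA-processing genes had a median difference of 0.59 (0.54 and 0.63). Of the 23, 14 were higher and 3 lower in both batches (60.9% and 13.04%, against 40.7% and 15.2% of all genes). At 1 log2 unit or more in both batches, 4 were higher (17.4%, against 6.23% of all genes), among them Dgcr8, Tarbp2, the Dicer partner TRBP, by 2.15 (1.49 and 2.81), and Zcchc11, a terminal uridylyltransferase of precursor microRNAs, by 1.21 (1.21 and 1.21). Xpo5, which exports precursor hairpins from the nucleus, was higher by 1.17 (1.42 and 0.92) and reached 1 TPM in 9 high and 3 low cells. Prkra, the Dicer partner PACT, was lower, at -1.26 (-1.18 and -1.34). The list median became 0.31 with the mitochondrial share regressed out, beside 0.05 for all genes. It became 0.26 with cells divided at the median, beside 0.10 for all genes. The core nucleases had small joined differences with opposite signs in the 2 batches: 0.01 for Drosha (-0.51 and 0.53) and 0.10 for Dicer1 (0.51 and -0.31).

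Of the known transcriptional regulators of Mir17hg, Mycn, the MYC family member of the growing ventricle, differed most. Mycn ranged from 0 to 153 TPM with a median of 18.9 TPM in the Mir17hg-high cells, and from 0 to 47.9 TPM with a median of 0.16 TPM in the Mir17hg-low cells. The groups overlapped, and 14 high against 6 low cells reached 1 TPM. Mycn was higher by 2.30 (2.47 and 2.14), E2f3, an activator of the G1 to S transition, was higher by 1.26 (1.31 and 1.20), while Myc differed by 0.05 (0.46 and -0.37). Among the 11 of 12 listed regulators that passed the filter the median was 0.28, near the 0.21 of all genes, with 6 higher and 1 lower in both batches (54.5% and 9.09%, against 40.7% and 15.2% of all genes). Mycn and E2f3 were the 2 that were higher by at least 1 in both. With only the 5785 genes that met the stricter TPM limit used for naming genes, the list median was 1.26, beside 0.49 for all genes.

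Genes of DNA replication and mitosis made up the broadest group that was higher in Mir17hg-high cells. All 27 S phase genes passed the filter, their median difference was 1.38 (1.01 and 1.66), and 25 were higher and 0 were lower in both batches (92.6% higher, against 40.7% of all genes), 9 of them by at least 1 (33.3%, against 6.23%). Tyms, thymidylate synthase, ranged from 0.58 to 328 TPM (median 111) in the high cells and from 0 to 317 TPM (median 5.56) in the low cells. Tyms was higher by 2.67 (2.19 and 3.15), and Rrm2, a ribonucleotide reductase subunit, by 2.47 (2.01 and 2.93). Pcna, the replication clamp, was higher by 1.94 (2.22 and 1.66), and Mcm5, of the replicative helicase, by 1.86 (2.88 and 0.85). Mcm6 and Rfc4 showed little difference, at 0.17 and 0.12.

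The 25 genes of G2 and mitosis had a median difference of 1.66 (1.06 and 2.26), with 22 higher and 0 lower in both batches (88% higher, against 40.7% of all genes) and 12 higher by at least 1 (48%, against 6.23%). Erythroid markers had a median sum of 33.4 TPM in the high and 3.28 TPM in the low cells. Across the 34 cells of a batch, Spearman's rho of Mir17hg with the erythroid list mean was 0.11 and 0.08. Without the cells that held any listed globin gene at 10 TPM or more, 12 high and 12 low cells remained. The median of the G2 and mitosis list was then 0.81, and whether erythroid RNA goes with this list was not tested. Aurkb, the kinase of the chromosomal passenger complex, ranged from 0 to 334 TPM (median 77.3) in the Mir17hg-high cells and from 0 to 407 TPM (median 0.55) in the Mir17hg-low cells. The ranges overlapped fully, with 3 low cells of batch 1 among the high levels, and the mean of Aurkb was higher by 3.31 (2.41 and 4.21). Plk1, a mitotic kinase, was higher by 2.86 (2.17 and 3.55), Ccna2, cyclin A2, by 2.57 (1.76 and 3.38), and Mki67, a proliferation marker, by 1.93 (1.95 and 1.91). Aurka, the spindle pole kinase, was the exception, at 0.07 (0.25 and -0.11).

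For G2 and mitosis the middle cells broke the order of the rank in 1 of the 2 batches. The mean of the G2 and mitosis list per cell was 4.41 ± 2.14 (SD, n = 22 cells) in the high, 4.76 ± 1.99 (SD, n = 24 cells) in the middle and 2.66 ± 1.92 (SD, n = 22 cells) in the low cells, so that the joined middle cells did not lie below the top cells. In batch 1 the means followed the rank, at 4.52, 4.17 and 3.39, and in batch 2 the middle cells were highest, at 4.31, 5.35 and 1.94 (high, middle and low cells). For the S phase list the joined means followed the rank, at 4.15 ± 1.73, 3.90 ± 1.52 and 2.79 ± 1.28 (SD, same cells), while in batch 2 the middle cells, at 4.00, were also slightly above the high cells, at 3.87. Each group held cells with very low and very high values: the G2 and mitosis mean ran from 0.80 to 7.93 in the high and from 0.46 to 7.21 in the low cells. Across all 34 cells of a batch Spearman's rho of Mir17hg with the list mean was 0.37 and 0.32 for S phase, and 0.19 and 0.46 for G2 and mitosis. When the cells of each batch were divided at the median in place of taking the ends, the list medians became 0.53 for S phase and 0.88 for G2 and mitosis. The median of all genes was then 0.10.

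Listed genes that MYC proteins are known to activate were also higher, and their mean followed the order of the rank. The 20 genes of this list had a median difference of 0.91 (1.18 and 0.68), with 16 higher and 0 lower in both batches (80% higher, against 40.7% of all genes) and 6 by at least 1 (30%, against 6.23%). Ddx18, a helicase of ribosome assembly, was higher by 2.40 (2.35 and 2.46), Srm, spermidine synthase, by 2.43 (3.70 and 1.15), and Cad, the first enzyme of pyrimidine synthesis, by 2.09 (2.88 and 1.30). Ncl, nucleolin, and Odc1, ornithine decarboxylase, differed by 0.15 and 0.07. The list mean was 5.94 ± 0.83 in high, 5.60 ± 0.91 in middle and 4.90 ± 0.90 in low cells (SD across 22, 24 and 22 cells), and its rho with Mir17hg was 0.56 in batch 1 and 0.37 in batch 2, above that of the S phase list in each batch.

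**Figure D3:**
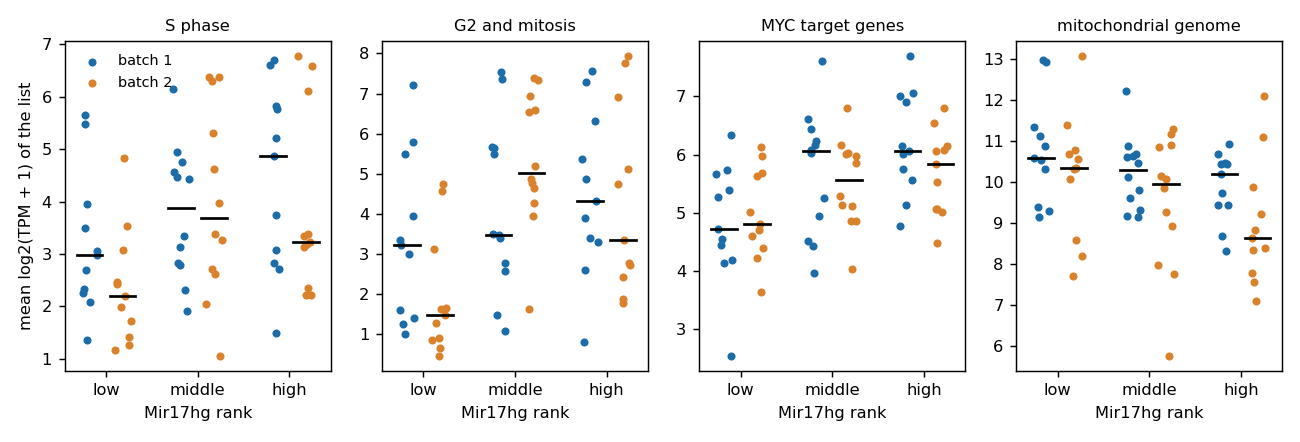
Mean log2(TPM + 1) of 4 gene lists in each cKO CM (vertical axis) by Mir17hg rank within batch, with 22 low, 24 middle and 22 high cells. Each point is a cell coloured by batch and each line is the median of a batch. In the G2 and mitosis list the middle and the high cells overlap, with means of 4.76 and 4.41 against 2.66 in the low cells, and all groups overlap in every list.

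The genes with the largest differences also held several outside these lists. Nt5c3b, a nucleotidase of cap-derived 7-methylguanosine monophosphate, ranged from 0 to 252 TPM (median 79.1) in the Mir17hg-high cells and from 0 to 98.5 TPM (median 2.29) in the low cells. Nt5c3b reached 1 TPM in 21 of 22 high and 12 of 22 low cells and was higher by 3.72 (2.93 and 4.50). Among the genes eligible for naming, Nt5c3b had the highest mean rank correlation with Mir17hg (mean of the 2 batch values of Spearman's rho 0.54). Mis18a, which licenses centromeres for new CENP-A histone, had a median of 42.1 TPM in the high and 0.16 TPM in the low cells and was higher by 3.22 (3.73 and 2.71). Eif2s1, the alpha subunit of the initiation factor eIF2, varied least among the high cells of the 12 genes named for a positive difference: it lay between 20.8 and 241 TPM in all 22 high cells, reached 1 TPM in 16 of 22 low cells, and was higher by 2.56 (2.55 and 2.56). Snd1, a nuclease-domain protein found in the RNA-induced silencing complex, was higher by 2.67 (2.47 and 2.87), Apex1, the apurinic endonuclease of base excision repair, by 2.70 (2.77 and 2.63), and Asf1b, a histone chaperone, by 2.47 (2.39 and 2.56). Lsm7, Pqbp1 and Hn1l, the first a subunit of the LSm ring on U6 RNA and the second a splicing-associated protein, were higher by 2.78, 2.67 and 2.50.

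By rank correlation with Mir17hg, Nt5c3b was followed by Usp28 (mean rho 0.53) and Usp14 (0.53), both deubiquitinases, Arglu1 (0.52), a splicing coactivator, and Nfib (0.51), a transcription factor of the NFI family. Nfib reached 1 TPM in 21 of 22 high cells, 7 of 22 low cells and 26 of 30 control CMs, and it was higher by 2.03 (1.86 and 2.20) in the high cells. The 5 lowest among the genes eligible for naming were mt-Rnr2, mt-Co2, mt-Nd5, mt-Co1 and Ctbp2, between -0.43 and -0.33. Each is a mean over 34 cells in each batch, and these genes were picked for these values from 5785 genes that reached 1 TPM in 50% or more of the CMs.

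**Figure D4:**
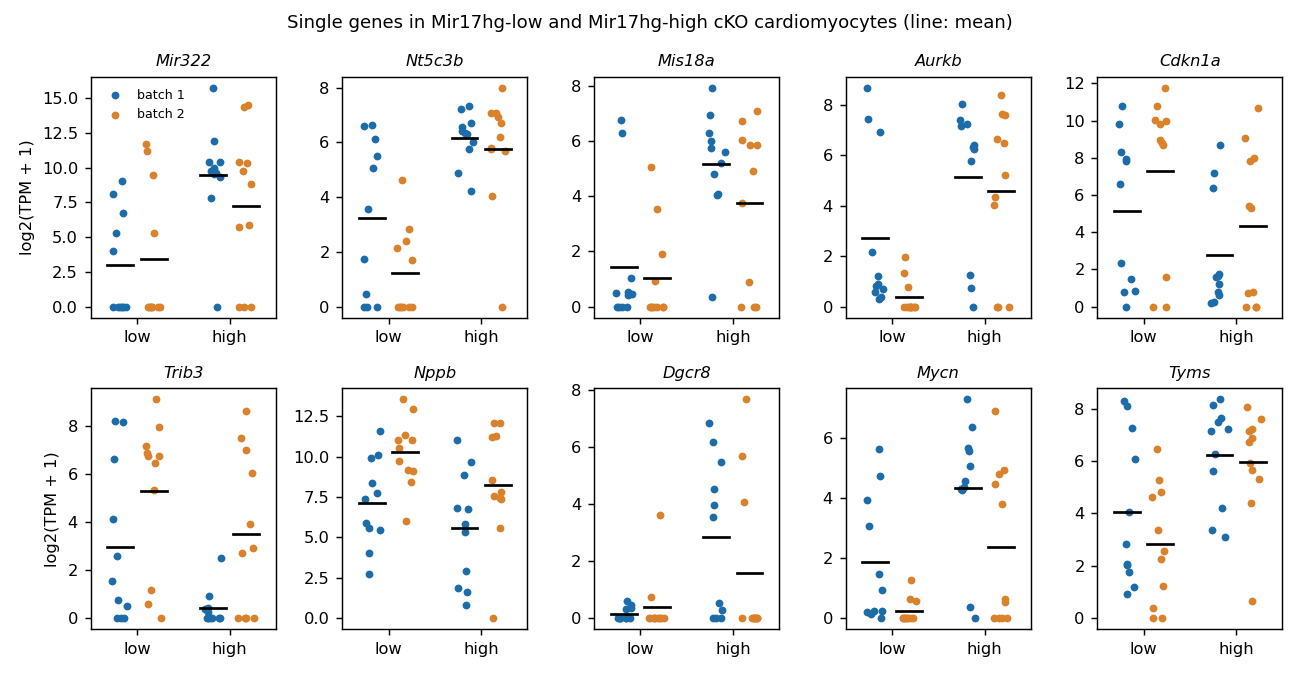
log2(TPM + 1) of 10 genes in the 22 Mir17hg-low and the 22 Mir17hg-high cKO CMs. Each point is a cell coloured by batch and each line is the mean of a batch. High and low cells overlap for each gene, many low cells are at 0 for Mir322, Nt5c3b and Mis18a, and Cdkn1a, Trib3 and Nppb lie lower in the high cells of both batches.

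Known targets of the miR-17-92 microRNAs lay near all genes as a group. Of the 30 listed targets 27 passed the filter, and their median difference was 0.16 (0.12 and 0.17), beside 0.21 for all genes. Of these 27, 11 were higher (40.7%, as for all genes) and 5 were lower in both batches (18.5%, against 15.2% of all genes). The sign of the median changed to negative under 7 of the 19 alternatives tried. Jak1, a cytokine receptor kinase, and E2f3 were higher by at least 1 in both batches, Jak1 by 1.37 (1.45 and 1.30). Bcl2l11, the death factor BIM, is a long-known target and differed by -0.58 (-0.20 and -0.96). The list mean per cell was 2.48 ± 0.59 in the high and 2.33 ± 0.78 in the low cells (SD, n = 22 cells each).

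Cdkn1a, the cyclin-dependent kinase inhibitor p21 and also a listed target, came first by the rule among the genes that were lower in the Mir17hg-high cells. It ranged from 0 to 1662 TPM (median 2.12) in the Mir17hg-high cells and from 0 to 3442 TPM (median 283) in the Mir17hg-low cells. The groups overlapped, with 3 cells at 0 in each, and the difference was -2.68 (-2.40 and -2.97) with an SD across cells of 4.00. The middle cells had a mean log2(TPM + 1) of 6.17, near the 6.24 of the low cells. The cell death and p53 list, to which Cdkn1a belongs, showed no shared direction, with a median of 0.01 over 16 genes, and Trp53 and Mdm2 were higher by 0.81 and 0.64. Among control CMs, Cdkn1a was also lower in the 9 Mir17hg-high than in the 10 Mir17hg-low cells, at -3.04.

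The other genes that were lower in Mir17hg-high cells had varied roles. Trib3, a pseudokinase of the ATF4 and CHOP stress response, had a median of 0.25 TPM in the high and 27.7 TPM in the low cells and differed by -2.16 (-2.55 and -1.76), and Ddit3, which encodes CHOP, by -0.81. The serine and one-carbon enzymes of the same list, Psat1, Phgdh and Shmt2, were higher, by 1.63, 1.22 and 1.37, and the list of 14 had a median of 0.07. Ier3, a stress-induced immediate early gene, differed by -2.06 (-1.56 and -2.57). Ctbp2, a transcriptional corepressor, differed by -2.09 (-1.64 and -2.55), and Lmna, the gene of lamins A and C, by -1.53 (-1.64 and -1.43). Yipf3 (-2.20), Tmem246 (-2.05), Ttc5 (-1.64), Ndrg2 (-1.61) and Dynlt1a (-1.46) completed the 12 most negative genes, and the value of Dynlt1a, a dynein light chain with near-identical neighbouring copies, is uncertain for that reason.

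Nppb and Nppa, the natriuretic peptide genes, were lower in Mir17hg-high cells. Nppb ranged from 0 to 4419 TPM (median 171) in the high and from 5.69 to 12043 TPM (median 566) in the low cells, a difference of -1.78 (-1.57 and -1.99), and Nppa differed by -1.65 (-2.27 and -1.02). Both groups overlapped over nearly their whole range. Of 20 ventricular and trabecular genes, 9 were higher and 4 lower in both batches, with a median of 0.35. These shares, 45% and 20%, were close to the 40.7% and 15.2% of all genes. Hey2, a transcriptional repressor of the compact ventricular wall, was lower, at -1.15 (-2.09 and -0.21), whereas Tbx20 and Tbx5, cardiac T-box factors, were higher by 0.93 (1.00 and 0.86) and 0.77 (0.66 and 0.88). The 15 CM genes of the rule differed by a median of -0.02, between -0.59 for Actn2 and 0.59 for Myh6.

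Transcripts of the mitochondrial genome were lower in the Mir17hg-high cells. Of the 13 genes, 11 were lower (84.6%, against 15.2% of all genes) and 0 were higher in both batches, with a median of -0.99 (-0.91 and -1.08). By at least 1 in both batches, 3 of the 13 were lower (23.1%, against 0.648% of all genes). mt-Co2, a subunit of cytochrome c oxidase, ranged from 1.47 to 3422 TPM (median 770) in the high cells and differed by -1.70 (-1.88 and -1.52). mt-Nd5, of complex I, differed by -1.22 (-1.04 and -1.41), and mt-Nd4l was the nearest to 0, at -0.50. In the middle cells the list mean was 9.86 ± 1.35 (SD, n = 24 cells), between 9.44 ± 1.28 in the high and 10.5 ± 1.42 in the low cells. The median was -0.31 when the 55 cKO CMs with at least 1 TPM of Mir17hg were set against the 7 at 0. The median of all genes was then 0.46. With the TPM rescaled to leave these genes out, the median of the S phase list was 1.36 and that of the G2 and mitosis list 1.62.

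**Figure D5:**
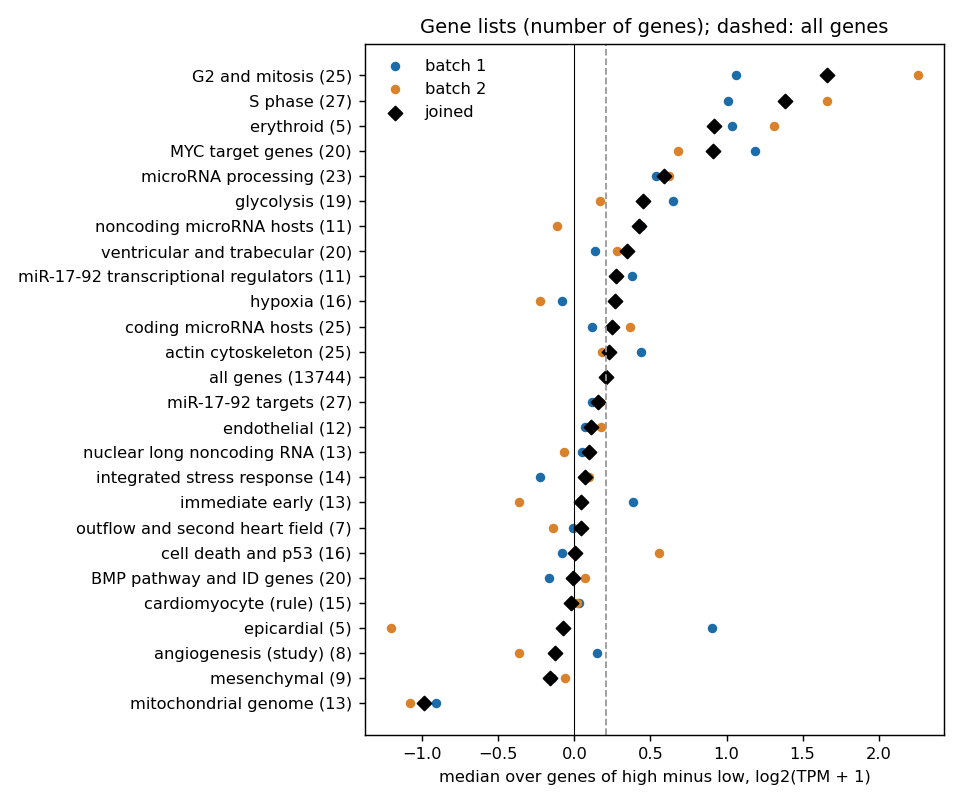
Median over the genes of each list of the difference in mean log2(TPM + 1), Mir17hg-high minus Mir17hg-low (horizontal axis), in batch 1, batch 2 and the joined cells, with the number of genes that passed the filter in parentheses. The dashed line is the median of all 13744 genes, 0.21. G2 and mitosis (1.66) and S phase (1.38) lie at one end and the mitochondrial genome (-0.99) at the other, and the miR-17-92 targets (0.16) lie beside all genes.

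The angiogenesis, BMP and actin lists had medians between -0.13 and 0.23, beside 0.21 for all genes. The 8 angiogenesis genes named in the study had a median of -0.13, with 2 higher and 3 lower in both batches (25% and 37.5%, against 40.7% and 15.2% of all genes). Flna, filamin A, was the exception and was higher by 1.66 (1.03 and 2.30), while Vegfa, the vascular growth factor, differed by -0.22 (-0.10 and -0.35). The 20 genes of the BMP pathway and its ID targets had a median of -0.01. Of these, 4 were higher and 5 lower in both batches (20% and 25%, against 40.7% and 15.2% of all genes). Bmp4, a ligand, was lower, at -0.85 (-0.91 and -0.79), and Smad1, its signal transducer, was higher by 0.69 (0.38 and 0.99). Actin cytoskeleton genes had a median of 0.23 over 25 genes.

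Markers of other cell types overlapped widely between the groups. Summed over the listed genes, endothelial markers had a median of 70.6 TPM (4.48 to 440) in the high and 54.4 TPM (10.1 to 391) in the low cells, and mesenchymal markers had 284 TPM (5.85 to 674) and 472 TPM (13.7 to 1143). Epicardial markers had 617 TPM (0.55 to 2317) and 659 TPM (4.53 to 2866). Erythroid markers, by contrast, had 33.4 TPM (0 to 816) in the high and 3.28 TPM (0 to 558) in the low cells. All 5 globin genes that passed the filter were higher in both batches (100%, against 40.7% of all genes), with a median of 0.92 beside 0.21 for all genes. In all, 4 of 9 erythroid genes, among them Alas2, Slc4a1 and Gata1, did not pass it. Nor did the endothelial Cdh5 and Sox17, the mesenchymal Postn and Twist1 or the epicardial Aldh1a2 and Tcf21. Reads of Hba-a1 and Hba-a2, near-identical copies, cannot be told apart with certainty. Without the cells that held any of the 5 globins at 10 TPM or more, 12 high and 12 low cells remained, and the median of the S phase list was 1.56. The part of erythroid RNA in the other differences was not tested.

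Control CMs divided in the same way showed other values. The 9 Mir17hg-high control CMs had from 4.50 to 50.7 TPM of Mir17hg and the 10 Mir17hg-low ones from 0 to 0.13 TPM, so the contrast in Mir17hg was smaller than among cKO cells. The number of detected genes had a median of 8456 (3805 to 10601) in these high and 9309 (6929 to 11468) in these low control CMs. That order was opposite to the order among the cKO cells, and its part in the values given here was not tested. The median difference was -0.56 for S phase, -0.47 for G2 and mitosis, 0.20 for MYC target genes and -0.03 for the mitochondrial genome, beside -0.17 for all genes. By batch, the G2 and mitosis median was 0.09 in batch 1 and -0.87 in batch 2, with 6 against 6 and 3 against 4 cells. Mycn differed by -2.26 (-2.62 and -1.37), opposite in sign to the cKO cells in both batches, and Mir322 by 3.66 (1.36 and 8.06), of the same sign. Its neighbours did not follow it in both batches: Mir503 differed by 0.15 (-0.06 and 0) and Mir351 by 0.13 (-0.66 and 1.98). Nt5c3b differed by 0.19 in batch 1 and by -2.75 in batch 2. Whether the cKO and the control contrasts differ was not tested.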

How the data were processed

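Single cells were profiled by Smart-seq2 and Tn5 libraries. The authors quantified transcripts with Salmon (version and annotation release not given in the sources used here; build mm10, per the labels) and deposited one table of TPM per gene symbol, 40549 genes by 143 cells. They had kept cells with over 70% mapped reads and removed cells whose reporter reads contradicted the genotype. Another 27 labelled cells are not analysed here. TPM values keep no read depth and add up to nearly the same sum in every cell, so that a gain in abundant transcripts takes from the rest. No doublet caller was run, since cells were picked by hand.

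Genes with a TPM above 0 in more than 10 of 68 cKO CMs were kept. The difference was the mean log2(TPM + 1) of Mir17hg-high minus that of Mir17hg-low cells, over the joined cells and in each batch; no p-value was computed, because each genotype is 1 sample. A gene was counted when it differed by at least 1 in the same direction in both batches. Genes were named by rule: among genes with a TPM of at least 1 in 50% or more of the CMs, the 12 with the largest and the 12 with the most negative difference, by the smaller of the 2 batch values in size, the 5 with the highest and the 5 with the lowest mean Spearman's rho with Mir17hg, leaving out symbols that are only clone or model names, and members of the gene lists. The list of plotted genes, and other single genes named from the lists, were chosen after their values were seen. The members and lists were chosen with earlier results of these data known. Positions were matched by symbol to GENCODE M21, and sequences to RefSeq (GRCm38.p6), where all 8 mature strands matched. Alternatives changed the pseudocount (0.1 or 10), the filter, the division of cells, the CM score (8 or 9) and the scale, or left out cells. Python 3.11.15 with numpy 2.4.6, pandas 2.3.3, scipy 1.17.1 and matplotlib 3.10.9 was used, and the scripts were tested on simulated data.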

Additional observations from a re-analysis of the deposited data

Results flagged for a closer look

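Group extremes were examined in 14 combinations of a measure and a group of 4 to 10 cells, all among control CMs, and chance marks about 1 in 20 such groups. Among the 9 Mir17hg-high control CMs, a cell with 3805 detected genes lay far below the others. Among the Mir17hg-low control CMs, a cell with 24.8% of its TPM from mitochondrial genes lay far above the others, both in the 10 cells of the 2 batches and in the 6 cells of batch 1. In those 6 cells, the lowest Mir17hg value, 0 TPM, also lay apart, although the 6 cells all had 0.13 TPM or less. These cells enter only the values given for control CMs.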

How the results depend on the processing

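No paired analysis was possible because the title numbers name individual cells and nothing here was tested. The cells are 1 sample of each genotype, and the number of detected genes and the mitochondrial share differ between the groups, which limits every difference above. Of the 19 alternatives, 14 were planned and 5 were chosen after seeing the data (residuals on the mitochondrial share, residuals on the G2 and mitosis mean, TPM without mitochondrial genes, and leaving out cells with under 6000 detected genes or with globin). A CM score of 8 kept the same 68 cells. The cause of the shifts was not tested.

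The count of genes higher by at least 1 log2 unit in both batches, 856, became 1660 with a pseudocount of 0.1, 144 with 10, 281 with cells divided at the median, 2046 with Mir17hg at 1 TPM or more against 0, and 386, 313 and 508 with residuals on detected genes, on the mitochondrial share and on the G2 and mitosis mean. The count of lower genes, 89, became 255, 13 and 46 with the first 3 of these, 45 with a TPM of at least 1 in 50% of CMs, 143 with a CM score of 9, 366 with log2 ratios of mean TPM, 166 and 164 with residuals on detected genes and on the mitochondrial share, 147 without cells over 10% mitochondrial TPM, 146 without cells under 6000 detected genes, and 284 without cells with globin. Batch 1 alone gave 2549 higher and 773 lower genes, and batch 2 alone gave 2691 and 776, since the other batch then sets no condition. The difference of Mir17hg itself was 7.39 with a pseudocount of 0.1, 3.74 with 10 and 4.17 with cells divided at the median.

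Of 508 values of gene lists under alternatives, 0 called lists turned in sign and 5 values moved. With only the 5785 genes that met the TPM limit for naming, the median of the listed Mir17hg regulators moved from 0.28 to 1.26. That of the outflow and second heart field list moved from 0.04 to 1.32, and that of the mesenchymal list from -0.16 to -0.75. All genes then had a median of 0.49. The mesenchymal median was -0.65 with log2 ratios of mean TPM. The epicardial median was -0.08 in the joined cells and -1.21 in batch 2 alone. Of 623 values of 33 single genes, 4 turned in sign, all with Mir17hg at 1 TPM or more against 0 (55 against 7 cells): Yipf3 to 1.22, Tmem246 to 0.47, Lmna to 0.99 and Dynlt1a to 1.51. The G2 and mitosis list was not computed on its own residuals, nor the mitochondrial list on TPM without its genes.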

Other observations

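Several metabolic and regulatory gene lists showed smaller differences between Mir17hg-high and Mir17hg-low cKO CMs. Of 19 glycolysis genes, 13 were higher and 1 was lower in both batches (68.4% and 5.26%, against 40.7% and 15.2% of all genes), with a median of 0.45 beside 0.21 for all genes. Ldhb and Ldha, the lactate dehydrogenase subunits, were higher by 0.86 (0.97 and 0.75) and 0.67 (0.68 and 0.65), and Gapdh differed by 0.00. Of 16 hypoxia genes, 4 were higher and 6 lower in both batches (25% and 37.5%, against 40.7% and 15.2% of all genes). Their median was 0.27 in the joined cells, -0.08 in batch 1 and -0.23 in batch 2. Adm, adrenomedullin, was higher by 1.49 (1.80 and 1.18), whereas Ndrg1 and Car9, the latter a carbonic anhydrase, differed by -1.71 (-1.16 and -2.26) and -1.42 (-1.83 and -1.01), so that genes of this list lay on both sides.

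Among nuclear long noncoding RNAs the median over 13 genes was 0.10. Tug1 was higher by 0.77 (0.77 and 0.78), and Malat1, a nuclear speckle RNA, was lower, at -0.68 (-0.43 and -0.94). The outflow and second heart field list had a median of 0.04 over 7 genes, with Isl1, a transcription factor of second heart field progenitors, at 0.05 (-0.01 and 0.12). With only the 5785 genes that met the TPM limit for naming, the median of that list was 1.32, beside 0.49 for all genes. The immediate early list had a median of 0.05 over 13 genes, with Jun higher by 0.74 (0.38 and 1.10) and Junb lower, at -0.76 (-0.76 and -0.76).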
